A study of Arabidopsis thaliana with 12 samples.

Results

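The genes described here are those whose signal in Arabidopsis thaliana roots was higher at pH 4.5 than at pH 6 after 8 h of exposure. After 1 h their difference stayed within a set limit, which does not mean that it was absent. They are 200 of the 22746 non-control probe sets of the Affymetrix ATH1 array, a microarray that reads each transcript with a set of short probes. They were chosen from group means of the signal, as log2 ratios of pH 6 over pH 4.5 after a constant of 4 was added to each mean. A member had a ratio of -1.2 or lower at 8 h, a ratio between -0.4 and 0.4 at 1 h and a largest group mean of at least 20, and its 3 signals at pH 4.5, 8 h all lay above the 3 at pH 6, 8 h. Symbols beginning with CML, EXL, EXP, XTH, UGT or CYP were left out, which removed 5 probe sets. Both pH comparisons therefore chose the members, and their values are given below as a description, with no test. The same holds for the change from 1 h to 8 h at either pH, which is read from the same arrays.

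All samples were total RNA from roots of accession Col-0 at a labelled age of 3.90 weeks, kept at 23 °C. Per the labels, germination was in tubes of 0.7% agarose, followed by non-sterile hydroponic culture in a diluted nutrient medium whose phosphate stock was at pH 5.6. The 4 groups, with 3 arrays each, were pH 4.5 for 1 h, pH 6 for 1 h, pH 4.5 for 8 h and pH 6 for 8 h. The labels give no group from before the exposure, no hour of sampling and no statement that replicates were separate cultures, so the spread between arrays may be technical, and exposure time and hour of the day cannot be told apart.

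Roots live in soil whose acidity sets the proton gradient across the plasma membrane, the solubility of metal ions and the activity of enzymes in the cell wall. Plants meet acid stress in part by exporting organic acids, by metabolic reactions that consume protons and by strengthening the wall, in which class III peroxidases take part. Many transcripts of stressed roots belong to families best known from responses to pathogens, such as chitinases, osmotins, lectins and receptor-like kinases. The glyoxylate cycle, another route met below, lets plant cells turn fatty acids and other sources of acetyl units into organic acids, and is best known from germinating seeds and senescing or starved tissue.

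Of the members, 106 have a probe set with a single named gene, 91 of them known only by a locus code. Another 7 have a probe set that the probe table gives to several genes, and 87 have no gene in that table. The roles given below are general knowledge of these genes, and the role groups were put together after the values had been seen. Apart from the genes picked by the naming rule given with the processing, the members named here were likewise chosen after their values were seen.

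The arrays were scaled alike, to a trimmed mean of 100, with array medians from 38.2 to 40.2. At 8 h the 3'/5' signal ratios of the actin, GAPDH and ubiquitin control probe sets, a sign of RNA quality, overlapped between the pH groups, at 15.3 to 20.8 against 14.4 to 19.9 for actin. At 1 h the actin ratio did not overlap, at 18.2 to 21.1 for pH 4.5 and 10.0 to 17.0 for pH 6. Of 10 leaf marker genes, 3 had a named probe set (RCA, PSAN and LHCB4.1), none was at 0, and their summed signal was 59.7 to 75.7 at pH 4.5, 8 h and 67.9 to 97.6 at pH 6, 8 h. It was higher at 1 h, at 116 to 181 and 156 to 185. The sum hides that the 3 genes differed in direction at 8 h. PSAN was at 14.1 ± 2.87 (SD) at pH 4.5, 8 h and 6.11 ± 7.76 at pH 6, 8 h. Its log2 difference, pH 6 minus pH 4.5, was -1.096 (limma, adjusted p = 0.0267). RCA (0.371, adjusted p = 0.179) and LHCB4.1 (0.451, adjusted p = 0.0537) leaned toward pH 6 and did not pass the same test. Of 9 root markers, 1 had a named probe set, the root hair expansin EXPA7, with 54.6 to 77.6 at pH 4.5, 8 h and 125 to 140 at pH 6, 8 h. The part of these differences in the results below was not tested. In roots taken whole, fewer cells of a type and less RNA per cell cannot be told apart.

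At 8 h the members' log2 ratio of pH 6 over pH 4.5 had a median of -1.68 and ran from -6.43 to -1.2. At 1 h its median was -0.04. The difference was at least 4-fold in 60 members, at least 8-fold in 19 and at least 16-fold in 3. The median of the members' group means was 47.8 at pH 4.5 and 47.6 at pH 6 after 1 h, and 113 at pH 4.5 and 23.0 at pH 6 after 8 h. The gap at 8 h thus lay on both sides of the 1 h level. From 1 h to 8 h the median log2 difference of group means was 0.98 at pH 4.5 and -0.74 at pH 6, against 0.01 and -0.00 over all non-control probe sets. At pH 4.5, 184 members had a higher mean at 8 h and 16 a lower one, and at pH 6, 20 were higher and 180 lower.

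Members reached their 8 h gap in 3 ways, told apart by a log2 difference of 0.6 between 8 h and 1 h at each pH. In 75 members (37.5%) the level was higher at 8 h at pH 4.5 and moved less than this limit downward at pH 6, and these are called the gain pattern. In 58 members (29%) it was lower at 8 h at pH 6 and gained less than the limit at pH 4.5, the loss pattern. In 65 (32.5%) both held, the mixed pattern, and 2 met neither limit. Median differences at pH 4.5 and pH 6 were 1.43 and -0.25 for the gain pattern, 0.28 and -1.202 for the loss pattern, and 1.06 and -0.92 for the mixed one. The 87 members with no gene in the probe table were spread over the patterns too, as 34 gain, 20 loss and 33 mixed members.

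**Figure D1:**
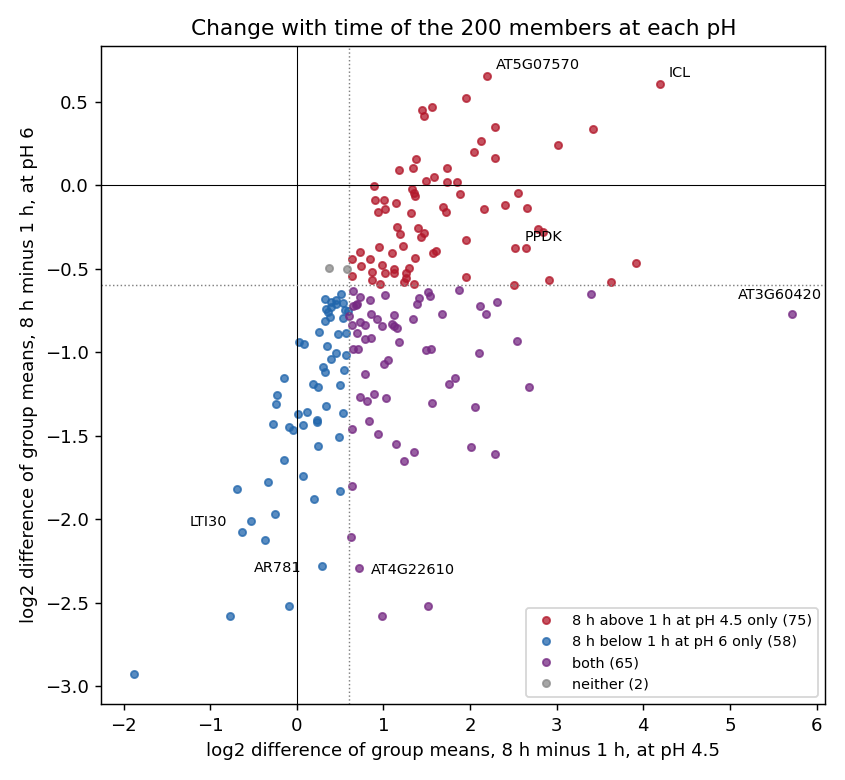
Log2 difference of group means (8 h minus 1 h) at pH 4.5 on the horizontal axis and at pH 6 on the vertical axis, one point per member, coloured by pattern with the dotted lines at the limits of 0.6. The points form a broad band from LTI30 and AR781, low at pH 6, to ICL and AT3G60420, high at pH 4.5, and the 3 patterns are sectors of that band without gaps between them.

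The arrays of each pattern are given here as medians over its members. The patterns were defined by these differences with time and hold different probe sets, so their levels are compared within a pattern and not between them. Gain members had per-array medians of 26.7, 28.3 and 28.6 at pH 4.5, 1 h, and 104, 106 and 113 at pH 4.5, 8 h. Loss members were at 122, 98.3 and 101 at pH 4.5, 1 h, were at 106, 99.98 and 118 at 8 h, and at pH 6 went from 109, 84.9 and 110 at 1 h to 40.6, 34.1 and 40.8. Mixed members had 38.9, 33.7 and 35.5 at pH 4.5, 1 h and 107, 112 and 109 at pH 4.5, 8 h, then 50.6, 36.9 and 38.3 at pH 6, 1 h and 17.5, 15.5 and 20.3 at pH 6, 8 h. At 8 h the pH groups did not overlap in any pattern, which the choice of members fixes.

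**Figure D2:**
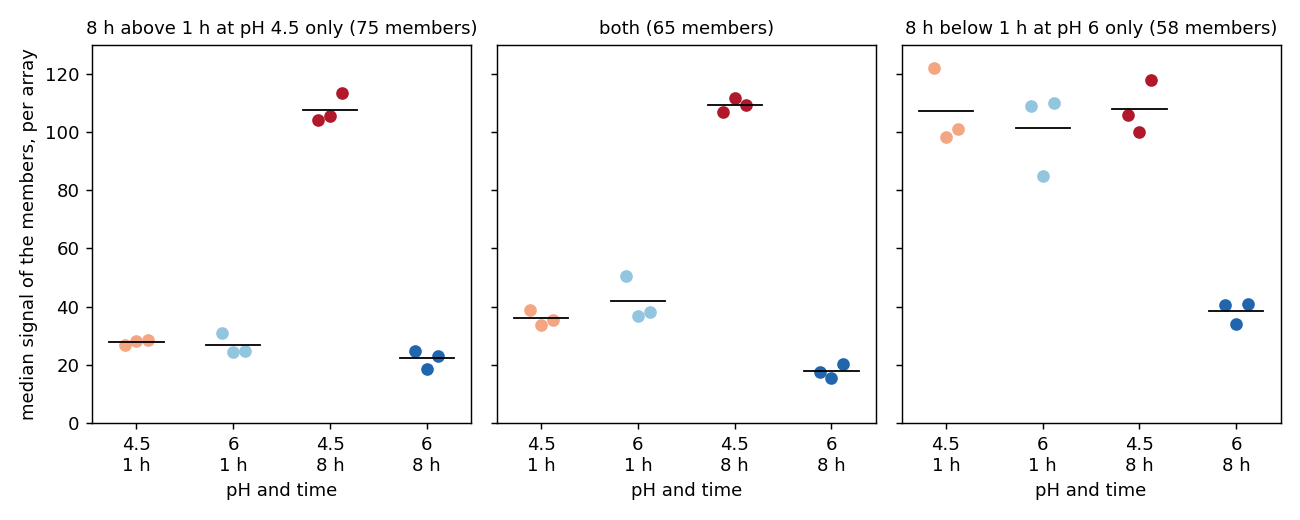
Median signal of the members of each pattern on each array, with 1 panel per pattern, the 4 groups on the horizontal axis, points for arrays and bars for the mean of the 3. Within the gain panel the pH 4.5, 8 h arrays (104 to 113) lie above the other 9, and within the loss panel the pH 6, 8 h arrays (34.1 to 40.8) lie below the other 9, as the definitions of the patterns require.

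Separation of single arrays gave a like picture. In 157 members (78.5%) all 3 arrays at pH 4.5, 8 h lay above all 3 at pH 4.5, 1 h, which held for 16.6% of all non-control probe sets. In 128 (64%) all 3 arrays at pH 6, 8 h lay below those at pH 6, 1 h, against 13.9% of all. In 87 members (43.5%) both held, against 2.37%. Since the rule asked for a gap at 8 h and at most a small one at 1 h, members had to move at 1 or both pH values, and these shares are not a result about them. Among the pH 6, 1 h arrays, replicate 1 stood high, with 79% of members above their group mean there, against 34.5% and 32.5% in replicates 2 and 3. Without it the median difference with time at pH 6 was -0.63.

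A quantity the rule did not use is the average change with time, the mean of both pH groups at 8 h minus that at 1 h. It is independent of both pH differences only where the groups have a like spread. This need not hold at low signal, and 50 members had a pH 6, 8 h mean under the filter's signal level. The average change was tested with limma over 15922 probe sets, and 195 members passed the filter on low signal. Of these, 68 (34.9%) rose on average and 44 (22.6%) fell, while 12.7% of all probe sets tested rose and 12.9% fell. The members' median average change was 0.10, with 107 above 0 and 88 below, and the range was -2.41 to 2.57. The average takes in both pH groups, so a member that moved at 1 pH alone shows part of that movement, and the rule favours probe sets with a small spread, so the excess of calls over the background is a description of members that had to move with time. Of the members tested, 11 had means below the filter's signal level in the other 3 groups and passed the filter through pH 4.5, 8 h alone, so their calls restate the gap that chose them. Members with 1 or more of these means just over the level were not counted among the 11, though their calls can restate the gap too. An example is AT5G38910, called higher, with means of 9.35 at pH 4.5, 1 h, 11.8 at pH 6, 1 h and 5.22 at pH 6, 8 h. Without the 11, and with such members kept, 61 of 184 members were called higher and 44 lower. These counts are therefore not free of calls that restate the gap. The counts of calls in the role groups below, which were formed after the values were seen, are to be read against these shares. Leaving out replicate 1 of pH 6, 1 h gave 70 higher and 33 lower.

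The member with the largest gap was AT3G60420, which encodes a protein of the phosphoglycerate mutase family. Its signals were 8.82, 18.1 and 3.07 at pH 4.5, 1 h and 8.77, 5.32 and 17.7 at pH 6, 1 h, then 845, 725 and 630.3 at pH 4.5, 8 h and 7.24, 3.69 and 2.77 at pH 6, 8 h. Its signal was low on 9 arrays, and the 3 at pH 4.5, 8 h lay far above them. The log2 ratio at 8 h was -6.43, and its average change with time was 2.57 ± 0.24 (SE), given here with no test, since it passed the filter on low signal through the pH 4.5, 8 h group alone. Its level at pH 6, 8 h lay under 11.1, the signal at which probe sets passed the filter, as it did in 50 members in all, and for these the ratio understates the ratio of signals.

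ICL (AT3G21720) encodes isocitrate lyase, the enzyme that opens the glyoxylate cycle. Its signals were 10.5, 1.28 and 1.32 at pH 4.5, 1 h, 4.34, 4.97 and 0.804 at pH 6, 1 h, 149.9, 164 and 133 at pH 4.5, 8 h and 6.91, 9.55 and 5.13 at pH 6, 8 h. The 3 groups other than pH 4.5, 8 h overlapped, all below the filter's signal level. ICL had the second largest difference with time at pH 4.5 among the members named (4.19), and its mean at pH 6 was also somewhat higher at 8 h than at 1 h (0.60). Its average change of 2.50 ± 0.24 is given with no test for the same reason. PPDK (AT4G15530), pyruvate orthophosphate dikinase, makes phosphoenolpyruvate from pyruvate. It had 28.7, 30.2 and 35.1 at pH 4.5, 1 h, 36.6, 18.5 and 15.2 at pH 6, 1 h, 189.8, 172 and 236 at pH 4.5, 8 h and 16.4, 11.9 and 23.2 at pH 6, 8 h. Here too the 8 h arrays at pH 4.5 stood alone, and the average change was 1.09 ± 0.17 (adjusted p = 7.17e-05).

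**Figure D3:**
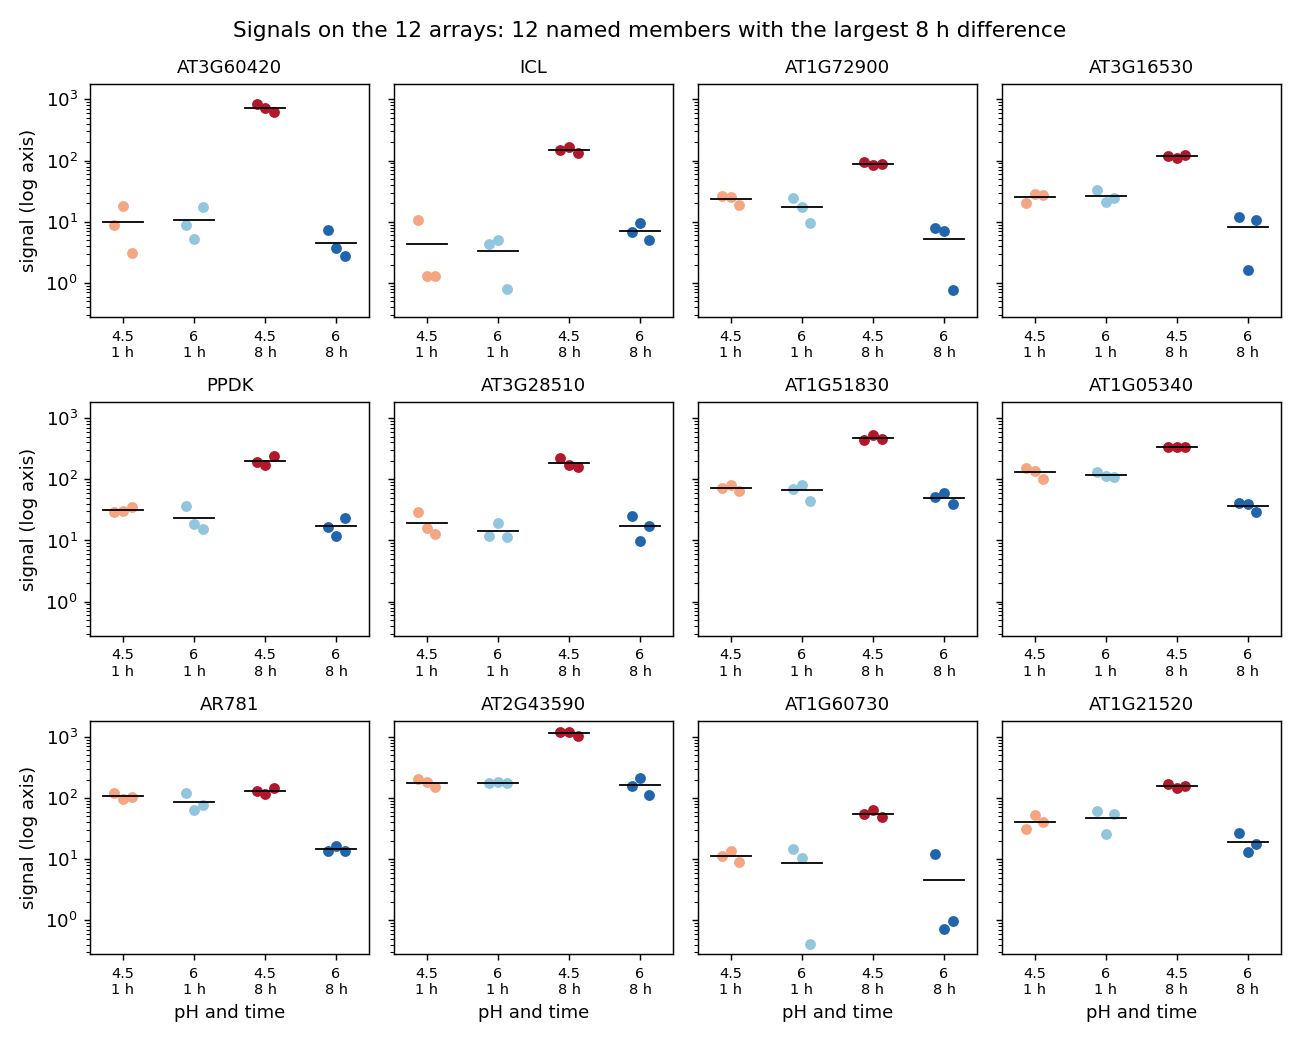
Signal on each array (logarithmic axis) of the named members with the largest 8 h gap, in the 4 groups, with points for arrays and bars for group means. AT3G60420, ICL and PPDK are high only in the pH 4.5, 8 h group, while AR781 is at a like level in 3 groups and low at pH 6, 8 h.

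The metabolic genes ran through all 3 patterns. Of 7 members with roles in carbon and nitrogen metabolism, 5 were called higher and 2 lower on average with time, and the 5 include AT3G60420 and ICL, whose calls restate the gap. FDH (AT5G14780), formate dehydrogenase of mitochondria, had 32.4, 33.2 and 28.6 at pH 4.5, 1 h, 22.0, 38.4 and 29.5 at pH 6, 1 h, 105, 99.8 and 92.8 at pH 4.5, 8 h and 15.5, 16.7 and 20.3 at pH 6, 8 h. It was a mixed member, with both 8 h groups outside the range of the 1 h groups (average change 0.45 ± 0.12, adjusted p = 0.00903). ALDH7B4 (AT1G54100), an aldehyde dehydrogenase that detoxifies reactive aldehydes under stress, had 426, 453 and 518 at pH 4.5, 1 h and 483, 413 and 441 at pH 6, 1 h. After 8 h it had 895, 809 and 1066 at pH 4.5 and 336, 347 and 273 at pH 6, and its average rise was small (0.25 ± 0.08, adjusted p = 0.0341). The average change of ALDH7B4 lost its call when any 1 of 8 arrays was left out (0.19 to 0.26).

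The 2 genes that fell on average were IVD and AAH. IVD (AT3G45300), isovaleryl-CoA dehydrogenase of leucine breakdown, had 108, 92.7 and 99.7 at pH 4.5, 1 h, 118, 106 and 129.6 at pH 6, 1 h, 141, 129.6 and 174 at pH 4.5, 8 h and 53.6, 47.6 and 56.9 at pH 6, 8 h (average change -0.28 ± 0.09, adjusted p = 0.0239). AAH (AT4G20070), allantoate amidohydrolase, which frees nitrogen from purines, had 211, 246 and 291 at pH 4.5, 1 h and 222, 256 and 171 at pH 6, 1 h. After 8 h it had 179, 184 and 254 at pH 4.5 and 80.4, 78.0 and 74.96 at pH 6. At pH 4.5 its arrays at 8 h overlapped those at 1 h, and all 3 at pH 6, 8 h lay below the other 9 (average change -0.84 ± 0.11, adjusted p = 8.75e-06). The average change of IVD lost its call when any 1 of 5 arrays was left out (-0.24 to -0.27).

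Pathogen-related and immune proteins were another group, with 4 gain and 4 mixed members of 8. None had the loss pattern, which 29% of all members had. The group was drawn after the values were seen, and the kinases and cysteine-rich repeat proteins, kept apart from it, held 4 loss members. The lack of loss members thus supports nothing by itself. On average with time 3 of the 8 rose and 5 were not called. AT2G43590, a chitinase-like protein of the family that cuts fungal cell walls, had 201, 179 and 154 at pH 4.5, 1 h and 176, 183 and 176 at pH 6, 1 h. It reached 1215, 1193 and 1039 at pH 4.5, 8 h and had 157, 215 and 113 at pH 6, 8 h, where it overlapped both 1 h groups (average change 1.24 ± 0.11, adjusted p = 1.55e-07). Its neighbour CHI (AT2G43570), also a chitinase, had 686, 693 and 770.2 at pH 4.5, 8 h against 193, 180.5 and 206 at pH 6, 8 h, with 179.6 to 275 at pH 4.5, 1 h and 203 to 305 at pH 6, 1 h (average change 0.60 ± 0.10, adjusted p = 0.000244). AT5G52810 (SARD4), an enzyme in the synthesis of pipecolic acid, a signal of systemic immunity, had 248, 225 and 212 at pH 4.5, 8 h and 75.4, 84.3 and 77.6 at pH 6, 8 h (average change 0.65 ± 0.08, adjusted p = 8.75e-06).

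The 4 mixed members of that group moved apart around their 1 h level, and their average changes did not pass the test (adjusted p from 0.862 for OSM34 down to 0.289 for AT3G16530). AT1G72900, a protein with the TIR domain of plant immune receptors, had 26.1, 25.2 and 19.0 at pH 4.5, 1 h and 24.4, 17.7 and 9.39 at pH 6, 1 h. After 8 h it had 95.1, 85.7 and 86.9 at pH 4.5 and 7.86, 7.18 and 0.756 at pH 6. AT3G16530, a legume-type lectin, had 20.1 to 28.1 at pH 4.5, 1 h and 21.3 to 32.9 at pH 6, 1 h, then 119, 112 and 122 at pH 4.5 and 11.9, 1.65 and 10.7 at pH 6. In both genes the pH 4.5, 8 h arrays were above, and the pH 6, 8 h arrays below, all arrays at 1 h. OSM34 (AT4G11650), an osmotin of the thaumatin-like family, did so at a higher signal, with 614, 504 and 645 at pH 4.5, 1 h and 940.3, 697 and 687 at pH 6, 1 h, 1142, 1036 and 1365 at pH 4.5, 8 h and 422, 339 and 341 at pH 6, 8 h. GRX480 (AT1G28480), a glutaredoxin that salicylic acid induces and that binds TGA factors, had 45.4, 42.5 and 53.7 at pH 4.5, 8 h and 7.37, 5.92 and 11.3 at pH 6, 8 h, around 22.7 to 27.6 at pH 4.5, 1 h and 13.0 to 36.0 at pH 6, 1 h. AT4G26120, a relative of the salicylic acid receptor NPR1 known as NPR2, had 51.5, 34.0 and 60.1 at pH 4.5, 8 h and 9.58, 7.66 and 17.0 at pH 6, 8 h, and was a gain member whose average change did not pass (0.28 ± 0.17, adjusted p = 0.256).

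Receptor-like kinases and cysteine-rich repeat proteins, which sense signals outside the cell or are secreted, gave 4 gain and 4 loss members, with 4 rises, 2 falls and 2 without a call. AT1G51830, a leucine-rich repeat receptor kinase, had 71.2, 81.4 and 64.4 at pH 4.5, 1 h and 70.6, 82.2 and 44.2 at pH 6, 1 h. At 8 h it stood at 438, 523 and 457 at pH 4.5 and 51.6, 58.9 and 38.8 at pH 6 (average change 1.15 ± 0.13, adjusted p = 1.77e-06). AT1G51840, a kinase-related gene next to it on chromosome 1, had 79.4, 165 and 118 at pH 4.5, 8 h, 9.84, 18.6 and 14.7 at pH 6, 8 h and 9.66 to 19.6 at pH 4.5, 1 h and 14.4 to 22.2 at pH 6, 1 h (average change 1.27 ± 0.19, adjusted p = 4.56e-05). In both neighbours the pH 6, 8 h arrays overlapped those at pH 6, 1 h. AT5G48540, a secreted cysteine-rich repeat protein, moved the other way, with 236, 247 and 230.2 at pH 4.5, 1 h and 243, 235 and 242 at pH 6, 1 h, 197, 179 and 189 at pH 4.5, 8 h and 69.7, 71.2 and 61.0 at pH 6, 8 h. It was lower at 8 h at both pH values (average change -1.05 ± 0.07, adjusted p = 1.52e-09), whereas its relative AT5G41280 rose, with 108, 109.9 and 111 at pH 4.5, 8 h (average change 0.44 ± 0.10, adjusted p = 0.00386).

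The 6 class III peroxidases, secreted enzymes that cross-link wall polymers and handle hydrogen peroxide, split into 4 loss and 2 gain members, and none was mixed. All 6 passed the test of the average change, 4 lower and 2 higher, where 22.6% and 34.9% of the members tested, and 12.9% and 12.7% of all probe sets, were called. This group was put together after the values were seen, and its count supports nothing by itself. AT5G64120 had 229, 209 and 259 at pH 4.5, 1 h and 364, 227 and 207 at pH 6, 1 h, then 219.7, 230.2 and 286 at pH 4.5, 8 h and 84.0, 62.5 and 83.6 at pH 6, 8 h, so that the pH 6, 8 h arrays lay below the other 9 (average change -0.82 ± 0.12, adjusted p = 5.18e-05). AT1G49570 had the same arrangement, with 41.0, 55.2 and 45.1 at pH 6, 8 h and 148, 186 and 213 at pH 4.5, 8 h, and an average change of -0.85 ± 0.10 (adjusted p = 3.27e-06). AT5G19890 (-0.78, adjusted p = 2.99e-06) and AT5G64110 (-0.50, adjusted p = 0.0278) also fell on average. The rising pair were AT3G49960, with 119, 99.9 and 87.5 at pH 4.5, 1 h and 49.0, 107 and 73.4 at pH 6, 1 h, 210.1, 231 and 254 at pH 4.5, 8 h and 64.4, 75.4 and 51.7 at pH 6, 8 h (0.48 ± 0.14, adjusted p = 0.0165), and AT5G06730 (0.49 ± 0.13, adjusted p = 0.00931). AT3G49960 overlapped between its pH 6 groups, and its 1 h ratio of -0.39 was the closest of the named members to the lower 1 h limit. AT5G64110 lost its call when any 1 of 5 arrays was left out (-0.40 to -0.48).

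Ubiquitin ligases of the U-box and RING types, which mark proteins for breakdown, had 4 gain members and 1 mixed member of 5, with 3 rises and 2 without a call. AT5G67340, a U-box protein, had 49.6, 47.9 and 45.9 at pH 4.5, 1 h and 70.8, 61.0 and 55.0 at pH 6, 1 h, 148, 135 and 144 at pH 4.5, 8 h and 34.3, 28.5 and 25.6 at pH 6, 8 h (average change 0.25 ± 0.09, adjusted p = 0.049). AT1G67800, a RING protein of the copine type, had 87.3 to 113 at pH 4.5, 1 h and 110.2 to 128 at pH 6, 1 h, 263, 254 and 279.6 at pH 4.5, 8 h and 122, 118 and 97.4 at pH 6, 8 h, overlapping the 1 h groups there (average change 0.66 ± 0.08, adjusted p = 8.03e-06). AT1G60610, another RING protein, rose by 0.61 ± 0.13 (adjusted p = 0.00188). The U-box genes AT3G61390 and AT5G61560 had smaller average changes that did not pass (0.11 and 0.14). AT5G67340 lost its call when any 1 of 10 arrays was left out (0.20 to 0.27).

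Of the 4 transport genes, AT1G51340 encodes a MATE transporter that carries citrate out of root cells and is known as a target of STOP1, the regulator of tolerance to acid and aluminium. Its signals were 15.8, 15.3 and 12.6 at pH 4.5, 1 h, 9.81, 11.2 and 16.8 at pH 6, 1 h, 43.3, 47.9 and 38.7 at pH 4.5, 8 h and 8.79, 10.0 and 22.6 at pH 6, 8 h. The pH 6 arrays overlapped between times, those at pH 4.5 did not, and the gene rose on average by 0.69 ± 0.18 (adjusted p = 0.0074). The MATE gene AT1G15170 had 124, 114 and 134 at pH 4.5, 1 h and 101, 90.9 and 99.2 at pH 6, 1 h. Its pH groups were thus already apart at 1 h, with a ratio of -0.34, within the limit of the rule. It had 179, 149.8 and 139.6 at pH 4.5, 8 h against 60.05, 50.9 and 49.9 at pH 6, 8 h and fell on average (-0.25 ± 0.08, adjusted p = 0.0342). The MATE gene AT1G33110 had 59.2, 53.2 and 63.5 at pH 4.5, 8 h against 22.5, 14.5 and 20.9 at pH 6, 8 h, and its average change did not pass (0.18 ± 0.12, adjusted p = 0.333). AT5G17850, of the cation/calcium exchanger family, did not pass either (-0.18 ± 0.10, adjusted p = 0.232). AT1G15170 lost its call when any 1 of 8 arrays was left out (-0.21 to -0.25).

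Secreted germin-like and lipid-transfer proteins had the widest gap of the role groups, with a median 8 h ratio of -2.62 over 4 members. AT1G18980, a germin-like protein of the cell wall, had 265, 304 and 242 at pH 4.5, 1 h and 292, 337 and 253 at pH 6, 1 h, 838, 908 and 868 at pH 4.5, 8 h and 178, 179.8 and 154 at pH 6, 8 h (average change 0.46 ± 0.08, adjusted p = 0.000251). The germin-like gene AT5G38910 had 57.0, 57.7 and 54.6 at pH 4.5, 8 h and no more than 13.0 on any array at pH 6. Its means in the other 3 groups were 9.35 at pH 4.5, 1 h, 11.8 at pH 6, 1 h and 5.22 at pH 6, 8 h. It thus passed the filter through pH 4.5, 8 h, its call as higher restates the gap, and its average change (0.79 ± 0.26) is given with no test. AT4G22610, of the lipid-transfer type, had a wide spread at 1 h, with 482, 272 and 272 at pH 4.5 and 431, 175 and 723 at pH 6, then 564, 624 and 504 at pH 4.5, 8 h and 68.7, 103 and 89.7 at pH 6, 8 h. It fell on average (-0.66 ± 0.23, adjusted p = 0.0437). AT5G55450, also of this type, was at 0.545 to 0.703 at pH 4.5, 1 h and 0.552 to 0.748 at pH 6, 1 h, at 0.298, 0.469 and 0.670 at pH 6, 8 h, and at 30.6, 19.5 and 19.4 at pH 4.5, 8 h. It did not pass the filter and was not tested. AT5G38910 lost its call when any 1 of 6 arrays was left out (0.52 to 0.79), with the smallest value without replicate 3 of pH 4.5, 1 h. AT4G22610 lost its call when any 1 of 8 arrays was left out (-0.43 to -0.70), with the smallest value without replicate 3 of pH 6, 1 h.

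**Figure D4:**
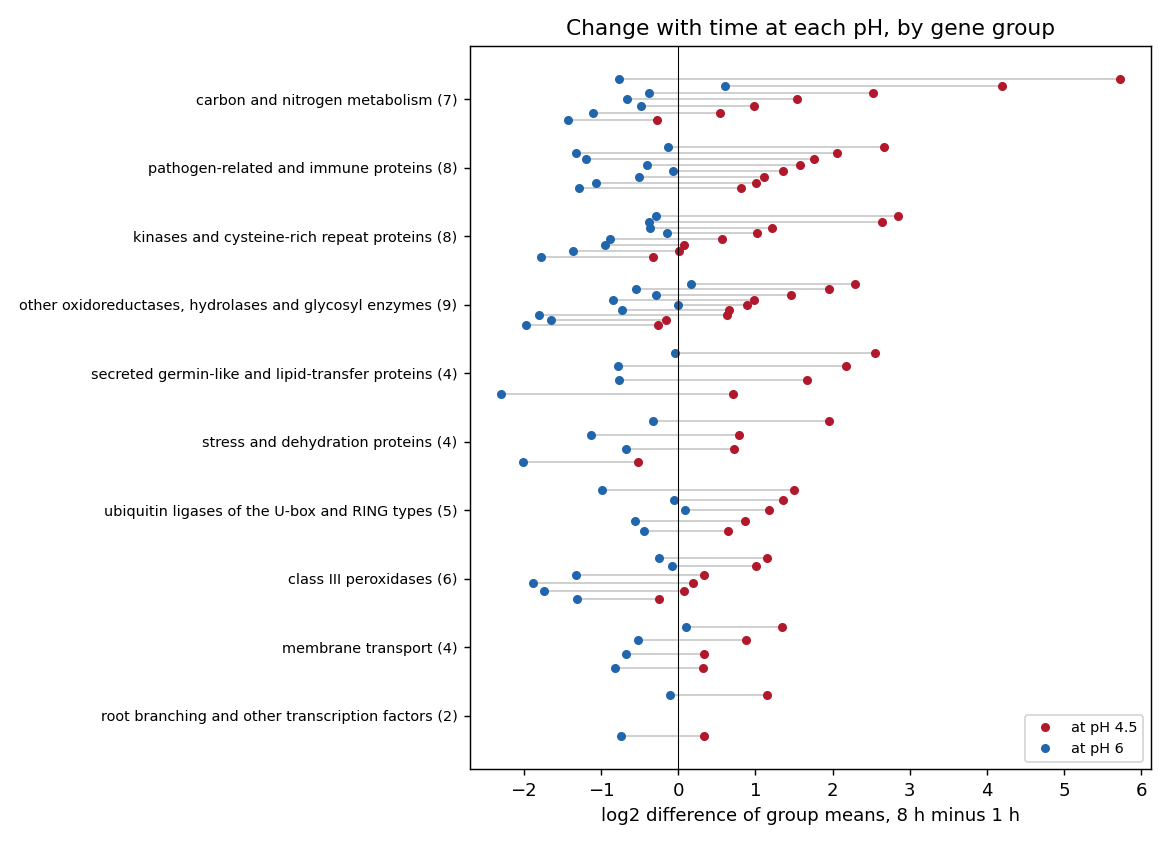
Log2 difference of group means (8 h minus 1 h) at pH 4.5 (red) and pH 6 (blue) for each member of the role groups, with a grey line joining the values of 1 gene. Red points lie to the right of blue ones by construction, the peroxidases lie near or above 0 at pH 4.5 and below 0 at pH 6 (medians 0.26 and -1.32), and the immune proteins lie on both sides of 0 (median 1.47 and -0.78).

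Other enzymes made up 9 members, of which 3 rose on average, 3 fell on average and 3 did not pass. BGLU25 (AT3G03640), a beta-glucosidase, had 199.8, 196 and 204 at pH 4.5, 1 h and 193, 182 and 169 at pH 6, 1 h, 1134, 1052 and 802 at pH 4.5, 8 h and 217, 204 and 191 at pH 6, 8 h. Its arrays at pH 6 moved little while those at pH 4.5, 8 h stood far above them (average change 1.22 ± 0.08, adjusted p = 2.32e-09). AT5G05600, a 2-oxoglutarate oxygenase that inactivates jasmonate by hydroxylation, had 154, 97.3 and 72.1 at pH 4.5, 1 h and 132, 48.4 and 116 at pH 6, 1 h, 76.5, 94.6 and 97.5 at pH 4.5, 8 h and 28.1, 28.8 and 9.84 at pH 6, 8 h (average change -1.08 ± 0.24, adjusted p = 0.00231). AT2G39400, an alpha/beta hydrolase, was a mixed member that fell on average (-0.59 ± 0.15, adjusted p = 0.00816) but was higher at 8 h at pH 4.5. It had 61.3, 77.1 and 65.4 at pH 4.5, 1 h and 76.0, 40.8 and 52.8 at pH 6, 1 h. After 8 h it had 107, 103 and 112 at pH 4.5 and 11.5, 8.30 and 20.5 at pH 6. Of the 3 hydrolases of the HAD type, AT2G32150 fell (-0.91, adjusted p = 4.83e-06), AT5G59490 rose (0.45, adjusted p = 0.00209) and AT5G02230 did not pass (-0.02, adjusted p = 0.912).

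Stress and dehydration proteins held the named member with the lowest adjusted p. LTI30 (AT3G50970) encodes a dehydrin, a protein that protects membranes in cold and drought. Its signals were 1809, 1736 and 1759 at pH 4.5, 1 h, 1770.0, 1493 and 1636 at pH 6, 1 h, 1263, 1248 and 1169 at pH 4.5, 8 h and 406, 409 and 395 at pH 6, 8 h. It was lower at 8 h than at 1 h at both pH values, and lower by far at pH 6 (average change -1.27 ± 0.06, adjusted p = 3.21e-11). SIS (AT5G02020), a salt-induced serine-rich protein, had 54.9, 39.0 and 59.6 at pH 4.5, 8 h and 17.1, 7.65 and 17.1 at pH 6, 8 h around 27.1 to 29.7 at pH 4.5, 1 h and 31.2 to 38.3 at pH 6, 1 h, and its average change did not pass (-0.21 ± 0.15, adjusted p = 0.359). AT5G22580, a stress-responsive barrel protein, rose (0.80 ± 0.11, adjusted p = 1.9e-05), with 159.9, 148 and 135 at pH 4.5, 8 h.

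Members also included LBD16 (AT2G42430) and LBD29 (AT3G58190), transcription factors that auxin induces at the start of lateral roots. LBD29 had 22.5, 27.0 and 25.7 at pH 4.5, 1 h and 30.9, 20.5 and 16.9 at pH 6, 1 h, 57.5, 80.4 and 43.5 at pH 4.5, 8 h and 25.2, 16.4 and 20.9 at pH 6, 8 h, a gain member (average change 0.51 ± 0.16, adjusted p = 0.0216). LBD16 had 64.9, 63.3 and 65.2 at pH 4.5, 1 h and 64.0, 52.3 and 46.6 at pH 6, 1 h, 78.1, 73.5 and 96.0 at pH 4.5, 8 h and 36.7, 26.9 and 29.1 at pH 6, 8 h, a loss member whose average change did not pass (-0.21 ± 0.10, adjusted p = 0.166). At pH 4.5, 8 h the arrays of both lay above those at pH 4.5, 1 h. LBD29 lost its call when any 1 of 4 arrays was left out (0.41 to 0.48).

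Several members with a wide gap fell outside these groups. AT3G28510, an AAA-type ATPase, had 29.5, 15.9 and 12.8 at pH 4.5, 1 h and 11.6, 19.1 and 11.5 at pH 6, 1 h, 227, 174 and 157 at pH 4.5, 8 h and 24.9, 9.65 and 17.4 at pH 6, 8 h (average change 1.63 ± 0.19, adjusted p = 3.9e-06). AR781 (AT2G26530) was the clearest loss member among the wide gaps, with 120.3, 95.6 and 102 at pH 4.5, 1 h and 119, 64.6 and 75.6 at pH 6, 1 h, 131, 114 and 148 at pH 4.5, 8 h and 13.8, 16.4 and 13.6 at pH 6, 8 h (average change -0.97 ± 0.12, adjusted p = 9.08e-06). AT1G05340 moved both ways by a like amount, with 151, 135 and 101 at pH 4.5, 1 h and 132, 114 and 109 at pH 6, 1 h, 337, 339 and 335 at pH 4.5, 8 h and 40.9, 39.8 and 28.8 at pH 6, 8 h, and its average change was -0.11 ± 0.10 (adjusted p = 0.454). AT2G18690, with 1080.4, 1274 and 1384 at pH 4.5, 8 h and 192, 231 and 178 at pH 6, 8 h, fell on average (-0.66 ± 0.11, adjusted p = 0.000161). Its pH 4.5, 1 h arrays, at 1061, 941 and 650, lay below those at pH 4.5, 8 h. Of the 49 named members placed in no role group, 14 had the gain, 21 the loss and 12 the mixed pattern, 8 rose, 14 fell and 25 did not pass.

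Some members lie side by side in the genome. Besides AT1G51830 and AT1G51840, the peroxidase genes AT5G64110 and AT5G64120 on chromosome 5 had no gene between them, CHI and AT2G43590 on chromosome 2 had 1, and AT5G22555 and AT5G22580 on chromosome 5 had 2. Each of the first 3 pairs shared its pattern, gain for the kinases and chitinases and loss for the peroxidases, and AT5G22555 was a mixed member beside the gain member AT5G22580. Near-identical neighbours can share probes. The array design marks the probe sets of 13 members as matching more than 1 transcript, and no gene of these pairs is among them. Shared signal between neighbours was not tested. How often neighbours occur in other gene sets of this size was not counted, so these pairs are a description.

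Pathways that bear on the members were looked up in 11 gene lists, whose 172 loci had 19 named probe sets, 4 of them members (ICL, IVD, GRX480 and AT1G51340). Of the 13 others that were tested, 8 were lower at pH 6 than at pH 4.5 after 8 h by limma, where 13.3% of all probe sets were lower, and 2 were called at 1 h, where 10.8% of all were called in either direction. The lists were chosen with earlier results of these data known. These counts, and the adjusted p-values of the list genes given next, are therefore descriptions and support nothing about the pathways by themselves. Breakdown of branched-chain amino acids had the most named genes, 6 of 16 loci. Beside IVD, MCCA, a subunit of the methylcrotonyl-CoA carboxylase of leucine breakdown, was at 148 ± 56.9 (SD, n = 3) at pH 4.5, 8 h and 85.7 ± 5.53 at pH 6, 8 h (log2 difference -0.70, adjusted p = 0.00444). The electron carriers that serve IVD differed less, ETFQO by -0.48 (adjusted p = 0.0377) and ETFALPHA by -0.34 (adjusted p = 0.0274). MCCB (-0.26, adjusted p = 0.158) and D2HGDH (-0.09, adjusted p = 0.681) did not pass.

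In the other lists, AIM1, an enzyme of peroxisomal beta-oxidation, was lower at pH 6 after 8 h (-0.38, adjusted p = 0.00586), as was SAG101, a partner of immune regulators (-1.04, adjusted p = 3.95e-05). WRKY6, a transcription factor of senescence and defence, differed at both times, by -0.65 at 1 h (adjusted p = 0.000591) and -1.34 at 8 h (adjusted p = 3.79e-08), and so does not meet the rule. NDB2, an alternative NADH dehydrogenase of mitochondria, was lower by -0.42 at 8 h (adjusted p = 0.00227) and by -0.30 at 1 h (adjusted p = 0.0478). AT5G09570 (-0.51, adjusted p = 0.0711) and AT2G21640 (-0.20, adjusted p = 0.659) of the same list did not pass at 8 h. AT3G13610, the hydroxylase that makes scopoletin under iron shortage, was at 2357 ± 249 at pH 4.5, 8 h and 1437 ± 55.3 at pH 6, 8 h (-0.71, adjusted p = 9.99e-05), while the iron regulator PYE did not pass (-0.20, adjusted p = 0.4). The lists of plasma membrane proton pumps, jasmonate, abscisic acid and nitrate genes had no named probe set and were not analysed here.

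The limits of the rule cut through a continuous range. Of 440 probe sets that met the 8 h conditions whatever their 1 h ratio, 188 were below -0.4 at 1 h and 47 above 0.4. At the 8 h limit, AT1G08050 lay just inside with -1.205, and AT3G55720 was outside with -1.197. At the lower 1 h limit, AT3G49160 was outside with -0.40 and AT3G49960 inside with -0.39. At the upper 1 h limit, OSM34 was inside with 0.397, while AT3G48640, with 0.42 at 1 h and -3.07 at 8 h, was outside.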

How the data were processed

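Root RNA was read on 12 arrays. The deposited values are linear array intensities. The submitters' processing notes name MAS5 and GCOS, and each array has a mean of 100 without its top and bottom 2%. The table has 22810 probe sets, 64 of them controls. The probe table names 1 gene for 13513, of which 13436 matched the RefSeq table of TAIR10.1. No detection calls were used.

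From these intensities log2(signal + 4) was computed. A model with a mean for each group was fitted in limma 3.58.1 (R 4.3.3; lmFit, then eBayes with the trend option), on probe sets with a mean at or above the 30th percentile. P-values are two-sided and Benjamini-Hochberg adjusted over 15922 probe sets at 0.05. Python 3.11.15 applied the rule. The procedure was tested on simulated data.

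The members and gene lists were chosen with earlier results of these data known. The naming rule took the 25 named members with the largest 8 h gap, members with a symbol other than a locus code, up to 4 members per keyword class, the 6 highest and 6 lowest average changes, members of the gene lists and genes at the limits. A planned grouping by keywords in gene names matched 5 members and was not used further, and a planned promoter search was not run. Alternatives were other constants, scalings, filters, limits, single arrays left out and a replicate block. Same-numbered arrays deviated together in 5 of 18 pairs (r over 0.1, range -0.09 to 0.17). Between differently numbered arrays of different groups r ran from -0.195 to 0.201, a wider range. Among the replicate 2 arrays r was positive in every pair, from 0.03 to 0.17, so these arrays may share a deviation. The numbers were not taken as pairs in the main model.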

Additional observations from a re-analysis of the deposited data

Results flagged for a closer look

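In 87 members the 3 arrays at 8 h all lay above those at 1 h at pH 4.5 and all lay below those at 1 h at pH 6, so that the differences with time had opposite directions at the pH values. This difference was not tested, because the rule that chose the members used it. Over all non-control probe sets 540 of 22746 (2.37%) had this arrangement. The 87 members include AT1G72900, AT3G16530, OSM34, FDH and AT1G05340.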

How the results depend on the processing

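The number of members was 200 and went to 280 with an 8 h limit of 1.0, to 125 with one of 1.5, to 153 (131 of them shared) with a constant of 16 and to 108 with a 1 h limit of 0.2, and it was 178 to 211 when single arrays were left out. With a constant of 16 in place of 4, the median difference with time at pH 4.5 was 0.81 (0.98 before) and the mixed pattern held 33 members (65 before), since a larger constant shrinks ratios of low signals. Leaving out single arrays gave medians of 0.93 to 1.02 at pH 4.5 and -0.82 to -0.63 at pH 6, with 63 to 86 gain, 51 to 64 loss and 54 to 77 mixed members. The calls of the average change were 60 to 70 higher and 33 to 44 lower over the same arrays. With the replicate number as a block they were 69 and 45, against 68 and 44. Neither median difference with time reversed its direction under any alternative run for it, nor did the average change of any named member called. Directions of the other members were not checked. Of 61 named members called, 16 lost the call under at least 1 of 21 alternatives. At the low end of the signal range, 50 members had a mean at pH 6, 8 h under the filter's signal level, where ratios are least precise.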

Other observations

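Among the members with no gene in the probe table, the highest average changes with time were 1.87 and 1.73 and the lowest -2.41 and -1.66. The member with 1.87 had signals of 149, 106 and 113 at pH 4.5, 8 h and 15.1, 10.6 and 19.95 at pH 6, 8 h. The member with -2.41 had 11.7, 12.8 and 10.3 at pH 4.5, 8 h and 3.44, 2.88 and 0.904 at pH 6, 8 h, below 46.8, 61.1 and 51.8 at pH 4.5, 1 h and 41.6, 45.3 and 47.3 at pH 6, 1 h. It was therefore lower at 8 h at both pH values.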
